A study of Mus musculus with 6 samples.

Results

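The transferrin receptor gene Tfrc was followed in mouse C2C12 myotubes with and without cobalt chloride (CoCl2), on arrays that name few genes. Tfrc was taken as the array probe annotated with its RefSeq transcript, 1 of 15 RefSeq-named probes among the 60915 probes that were scaled. Each RefSeq-named probe is printed 20 times on every array. The transcript's accession matched Tfrc in the RefSeq gene table once its version was removed. The probe's own sequence and its place in the transcript are not given in the sources used here, and the RefSeq table lists more than 1 transcript for the gene.

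C2C12 cells are mouse myoblasts that fuse into myotubes once serum is lowered. All 6 samples are labelled as myotubes after a change from 10% fetal bovine to 2% horse serum. The control group had 3 samples with no treatment, and the CoCl2 group had 3 samples that received 200 uM CoCl2 for 48 h before collection. Each sample was hybridised to 1 one-colour array, and the design text describes the experiments of a group as independent. All samples come from this 1 cell line, and 50.9% to 57.6% of an array's probes were well above background. None of the 21 myotube, 11 myoblast, 7 fibroblast or 13 stress markers on the lists used here is named on the array, so the labelled cell state could not be checked. Fewer cells and less RNA per cell cannot be told apart in such bulk samples.

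Tfrc encodes the receptor at the cell surface that binds iron-loaded transferrin and carries it into the cell by endocytosis. Its mRNA is held stable by iron regulatory proteins when iron is scarce, and its promoter is a described target of the hypoxia-inducible factors (HIFs). Cobalt ions stabilise HIF proteins in normal oxygen, which is why CoCl2 is used to mimic hypoxia. In muscle the receptor supplies iron for myoglobin and for the respiratory chain.

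The promoter is shown because the place of Tfrc among HIF targets rests on it, and the array results below can be read against it. The sequence is from RefSeq, build GRCm38.p6, chr16:32608646-32608925, plus strand, with 250 bases before and 30 bases after the first of the 2 annotated starts. Capitals mark the HIF core motifs ACGTG and GCGTG, searched on both strands (a match on the other strand reads CACGT or CACGC).

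Tfrc promoter: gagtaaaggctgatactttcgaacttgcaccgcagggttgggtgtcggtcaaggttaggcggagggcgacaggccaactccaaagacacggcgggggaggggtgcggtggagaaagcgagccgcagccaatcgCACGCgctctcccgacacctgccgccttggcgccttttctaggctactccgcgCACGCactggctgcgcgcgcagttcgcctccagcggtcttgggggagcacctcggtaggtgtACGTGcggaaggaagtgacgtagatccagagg

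This window held 1 match to ACGTG, which begins 2 bases before the annotated start, and 2 matches to GCGTG on the other strand, which begin 117 and 64 bases before it. The ACGTG match lies within TACGTGC, a form of the hypoxia response element. In the window of the second annotated start, 1 match to TACGTGC begins 229 bases before that start, beside 2 matches to GCGTG. Over 32817 promoter windows in the same table, each from 250 bases before to 50 after a start, 19.6% held ACGTG, 32.4% held GCGTG and 0.774% held TACGTGC. The window of Pgk1, a glycolytic HIF target measured on the same arrays, held 2 matches to ACGTG and none to TACGTGC. The window of Gapdh held 1 match to TACGTGC, on the other strand and after its annotated start (base 42). A match describes the letters of the window and shows no binding.

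Tfrc was among the bright probes of the array and was well above background at all 20 spots on all 6 arrays. Its processed signal, the geometric mean of the spots used, was 89467.5, 69599 and 83121 intensity units in controls 1 to 3. With CoCl2, replicates 1 to 3 gave 68876, 83250.3 and 80368 units. These unscaled groups overlapped, with the highest and the second lowest value both in controls. The median local background at the Tfrc spots was 18 to 23 units, and no spot was saturated.

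The 20 spots of an array agreed closely. Their SD on the log2 scale was 0.023 to 0.054, against an SD of 0.25 between the 3 control arrays. Spots with an outlier flag were left out, which removed 5 Tfrc spots in control 1 and 0 to 2 on each other array. The 5 flagged spots of control 1 lay between 0.05 below and 0.16 above the mean of its used spots, and keeping all flagged spots left the group difference at 0.12. The spread that limits the comparison was therefore that between arrays.

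**Figure D1:**
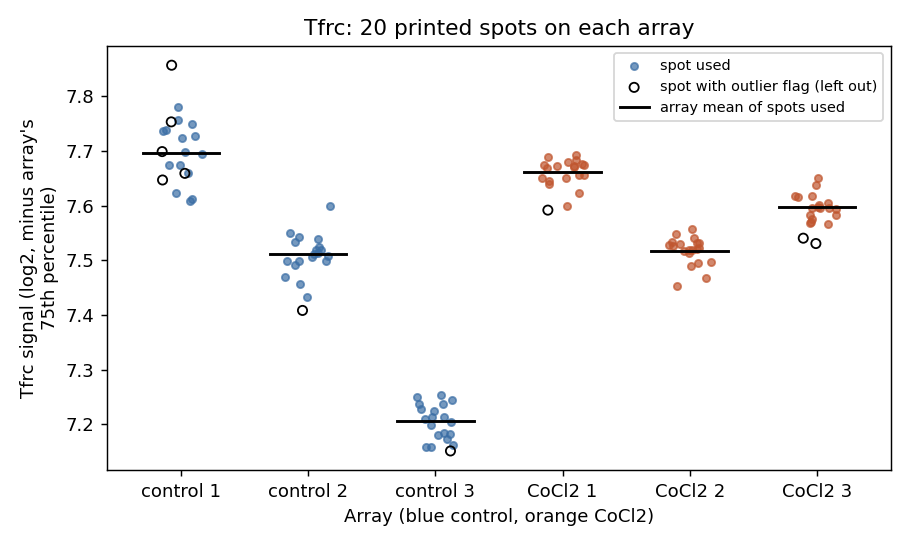
Tfrc signal at each of the 20 printed spots (y axis, log2 minus the array's 75th percentile) on each array (x axis, 3 controls in blue and 3 CoCl2 arrays in orange), with open circles for spots left out for an outlier flag and bars for the array means. The bars of the CoCl2 arrays, 7.52 to 7.66, lie inside the range of the control bars, 7.21 to 7.70.

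After CoCl2 the level of Tfrc was within the range of the controls. With each array shifted by its 75th percentile, Tfrc was at 7.70, 7.51 and 7.21 on the log2 scale in controls 1 to 3. With CoCl2, replicates 1 to 3 were at 7.66, 7.52 and 7.598. All CoCl2 arrays lay between the highest and the lowest control, and control 3 was the lowest array of all.

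The means were 7.47 ± 0.25 (SD, n = 3) in controls and 7.59 ± 0.07 (SD, n = 3) after CoCl2. The log2 difference, CoCl2 minus control, was 0.12 (SE 0.17), a ratio of 1.09, with a 95% interval from -0.27 to 0.51. It did not pass in limma (adjusted p 0.568, over 34839 tested probes), where 47.6% of the tested probes passed an adjusted p of 0.05. The groups did not overlap for 59.5% of tested probes with 6 values, and Tfrc was not one of them (exact two-sided permutation test p 0.6, where the smallest possible p is 0.1). The interval leaves room for changes in either direction, so this does not show that Tfrc was unchanged.

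The size of this difference depended on control 3. Control 3 shared its recorded scan start with the 3 CoCl2 arrays, while controls 1 and 2 had scan starts of their own on another day. Against control 3 alone, the value within that scan start and day, Tfrc was higher by 0.39 in CoCl2 (limma adjusted p 0.17 with scan start as a block, 0.211 with scan day). Without control 3 the difference was -0.01. The part of scan start and day in the spread of the controls was not tested.

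The sign also depended on the scaling. The difference was 0.15 with median scaling, -0.06 with no scaling between arrays, -0.19 with cyclic loess and -0.25 with quantile normalization (limma adjusted p 0.133). With limma's array weights it was 0.28 and passed (adjusted p 0.0235, range over the alternatives 0.0235 to 0.961), with a weight of 16.8 for CoCl2 replicate 3 and 0.214 for control 1. No other alternative passed.

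**Figure D2:**
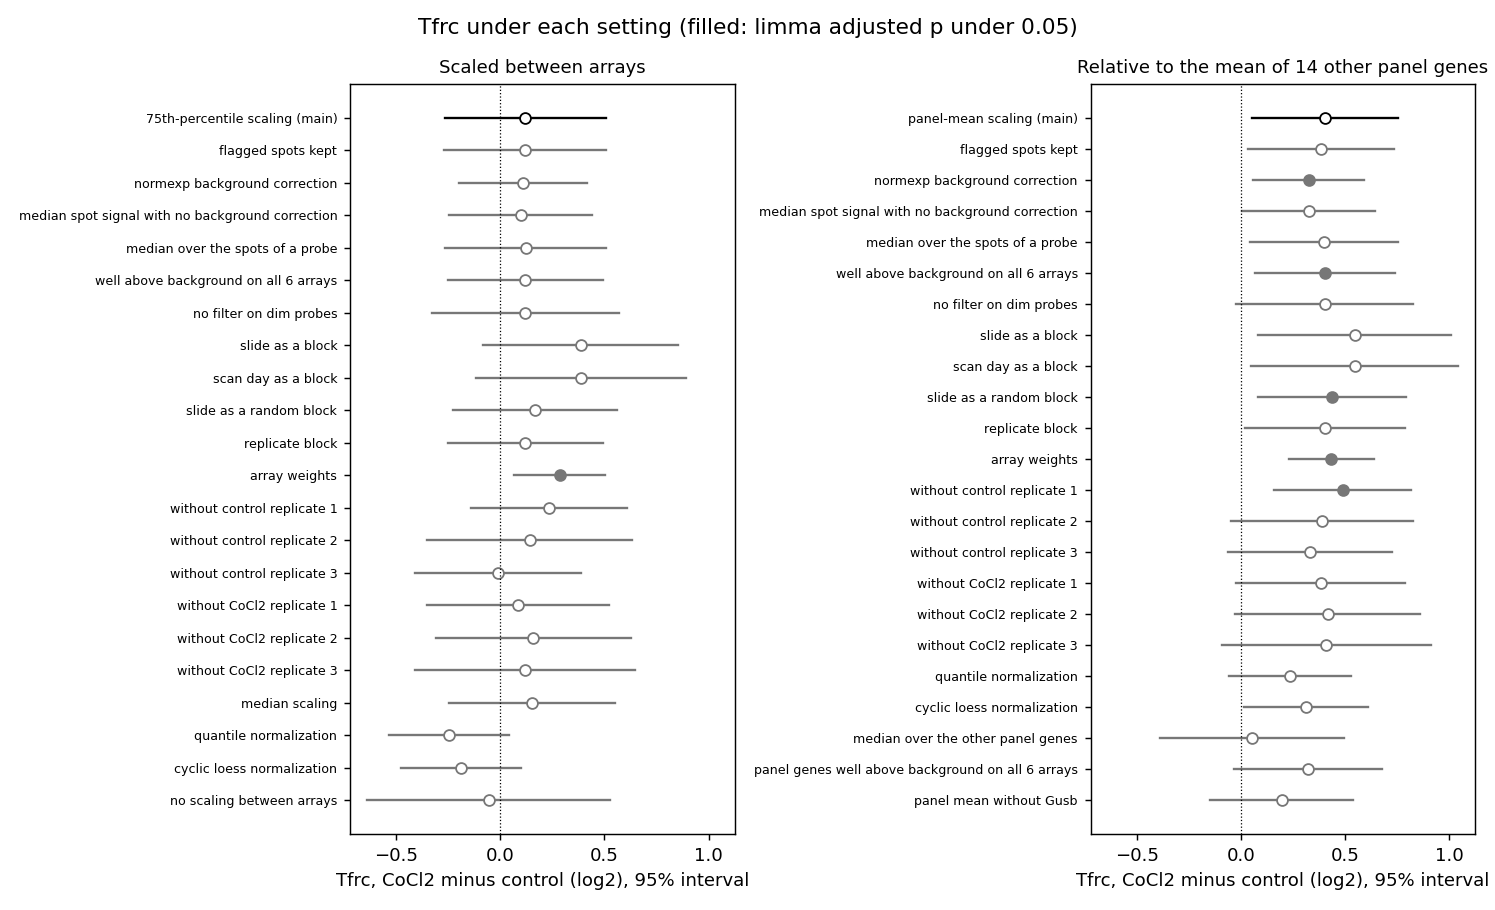
Tfrc difference (x axis, CoCl2 minus control, log2) with its 95% limma interval under each setting (y axis), for arrays scaled between each other (left) and relative to the mean of 14 other RefSeq-named genes (right), with filled points for an adjusted p under 0.05 and slide standing for arrays with 1 scan start. On the left the values run from -0.25 to 0.39 on both sides of 0, and on the right from 0.06 to 0.55.

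Most probes about as bright as Tfrc had a larger CoCl2 minus control difference than Tfrc had. The 546 tested probes within 0.5 log2 of the mean level of Tfrc had a median difference of 0.42, with the middle 50% of them between 0.14 and 0.70. Of these probes, 76.6% had a larger difference than Tfrc. Over all tested probes the median was 0.11.

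Under quantile normalization the median of the same 546 probes was 0.06, and 76.9% of them lay above Tfrc. Quantile normalization shifts probes of like brightness on an array by nearly the same amount. The place of Tfrc among them could therefore hardly differ between the scalings, although its own sign did. On each array, Tfrc minus the median of these probes was 0.17, 0.20 and 0.13 in controls 1 to 3, and -0.28, -0.01 and -0.13 after CoCl2 (replicates 1 to 3). The groups did not overlap here, with every CoCl2 array below every control, but the same held in either direction for 61.2% of these 546 probes set against the same median. The exact two-sided permutation p was 0.1, the smallest the design allows.

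**Figure D3:**
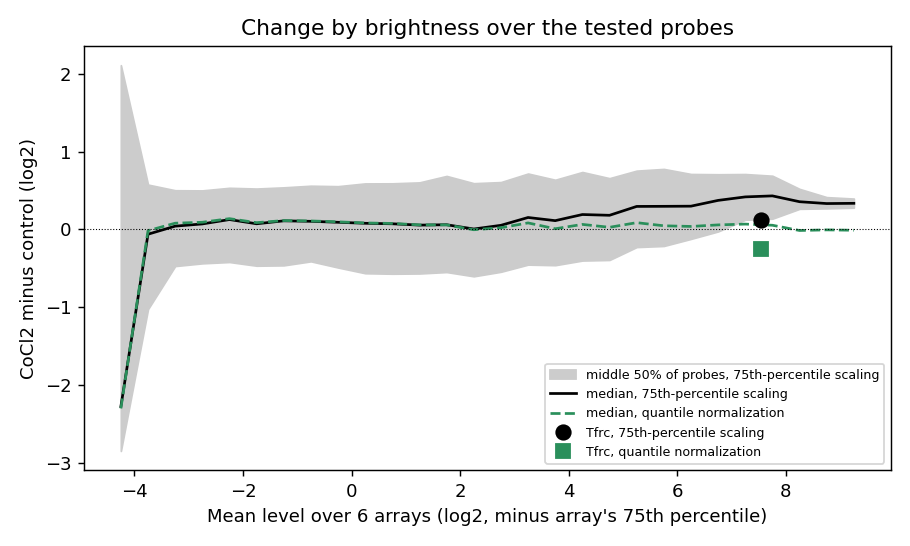
Median difference of the tested probes (y axis, CoCl2 minus control, log2) by their mean level over 6 arrays (x axis, log2 minus the 75th percentile), in bins of 0.5 log2, with the middle 50% of probes in grey. Tfrc lies below the median of its brightness in both scalings, at 0.12 (circle, 75th-percentile scaling) and -0.25 (square, quantile normalization).

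Relative to the mean of the other RefSeq-named genes, Tfrc was higher on every CoCl2 array than on any control. Relative to their median the groups overlapped. The mean of the other 14 genes of this panel was subtracted on each array, which removes any scaling of whole arrays. Levels of different probes cannot be set against each other, so only the change in this quantity is read. It was 3.08, 2.88 and 2.77 on the log2 scale in controls 1 to 3, and 3.35, 3.29 and 3.30 after CoCl2 (replicates 1 to 3). The CoCl2 arrays lay within 0.06 of each other.

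The difference was 0.40 (SE 0.15, ratio 1.32), with a 95% interval from 0.05 to 0.75. It narrowly missed the threshold in limma with the panel mean as scaling (adjusted p 0.0504, range over the alternatives 0.00212 to 0.847), where 57.7% of tested probes passed. The exact permutation p was 0.1. In this scaling the groups did not overlap for 67.3% of tested probes, and the median of all tested probes was 0.39, nearly the value of Tfrc. Against control 3 alone the difference was 0.55 (adjusted p 0.0833 with scan start as a block, 0.0932 with scan day).

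The panel mean itself was lower after CoCl2, and a few genes carried most of that. It was at 4.62, 4.63 and 4.44 in controls 1 to 3, and at 4.31, 4.23 and 4.30 after CoCl2 (replicates 1 to 3), a difference of -0.28 after 75th-percentile scaling. Gusb, the gene of the lysosomal enzyme beta-glucuronidase, contributed -0.21 to it. Ldhal6b, a lactate dehydrogenase-like gene, contributed -0.10 although none of its arrays was well above background. G6pd2, a retrotransposed copy of a glucose-6-phosphate dehydrogenase gene, contributed -0.08. The largest contributions of the opposite sign were 0.07 from the glycerol kinase gene Gk and 0.06 from Hprt of purine salvage.

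Without Gusb the Tfrc difference was 0.20 (adjusted p 0.297). With the 13 panel genes well above background on all arrays it was 0.32 (adjusted p 0.108). Against the median of the 14 genes it was 0.06 (adjusted p 0.847), with 1.89, 2.03 and 1.93 in controls and 1.82, 2.17 and 2.03 in CoCl2 replicates, so the groups overlapped. The size of the Tfrc difference relative to the panel thus depended on which panel genes were averaged and how.

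Set against single genes, Tfrc moved both ways. It was compared with each of the 14 panel genes and with 4 control-type probes named for mouse Gapdh and Pgk1, 18 comparisons in all. The groups did not overlap in 13 of them (Tfrc relatively higher in 6 and lower in 7), where Tfrc minus each tested probe gave 51.8%. Among the 6 is Ldhal6b, which was well above background on 0 of 6 arrays, so the Tfrc difference against it is not given. That background is over tested probes, which do not include Ldhal6b or the control-type probes. Each of these had an exact permutation p of 0.1, or 0.138 after Benjamini-Hochberg adjustment over the 18. Over the 14 panel genes, Ldhal6b included, the median difference was 0.33, against 0.01 over all tested probes.

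In limma with each array shifted by the gene in question, 10 of the 18 passed (Tfrc relatively higher in 4, Ldhal6b among them, and lower in 6). Tfrc was relatively higher by 3.10 against Gusb (adjusted p 1.6e-05, where 97.1% of tested probes passed) and by 1.24 against G6pd2 (adjusted p 0.00261, where 84.1% passed). Against Ldhal6b 86.6% passed. Scan start as a block leaves control 3 alone beside the CoCl2 arrays, so its p values carry no spread between controls. With that block the difference was 3.37 against Gusb and 1.58 against G6pd2.

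Against the tubulin gene Tuba1b the difference was 0.57 (adjusted p 0.0264, where 56.5% passed), and 0.55 with the block. This call was lost without CoCl2 replicate 3 (adjusted p 0.129, the highest with 1 array left out). The difference was 0.50 against the splicing-related gene Nono (adjusted p 0.0548, where 60.3% passed). It was 0.51 against the actin gene Actb (adjusted p 0.195, where 39.4% passed). Neither passed in this fit, and both passed with array weights (adjusted p 0.000325 for Nono and 0.00381 for Actb). With quantile normalization neither passed, at 0.26 for Nono (adjusted p 0.164) and 0.34 for Actb (adjusted p 0.27). Tfrc was relatively lower by a log2 of -0.89 against Gk (adjusted p 0.00618, where 74.3% passed). That value was -0.45 against control 3 alone and did not pass with the block (adjusted p 0.10). Against Hprt it was -0.73 (adjusted p 0.0146, where 61.6% passed), and -0.68 with the block. The Hprt call too was lost without CoCl2 replicate 3 (adjusted p 0.0708, the highest with 1 array left out).

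The groups overlapped for Tbp (0.42), B2m (0.25), Ppia (0.12), Hsp90ab1 (-0.16) and Rpl13a (-0.40). Single arrays moved these values by over 1.5 times. Without CoCl2 replicate 1 the difference was 0.18 for Tbp, 0.39 for B2m and -0.24 for Rpl13a, and without CoCl2 replicate 2 it was 0.11 for B2m and 0.07 for Ppia. Without control 1 it was 0.68 for Tbp and 0.02 for Hsp90ab1. Many of these 18 probes are for common reference genes, and the sign of the Tfrc difference varied among them.

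**Figure D4:**
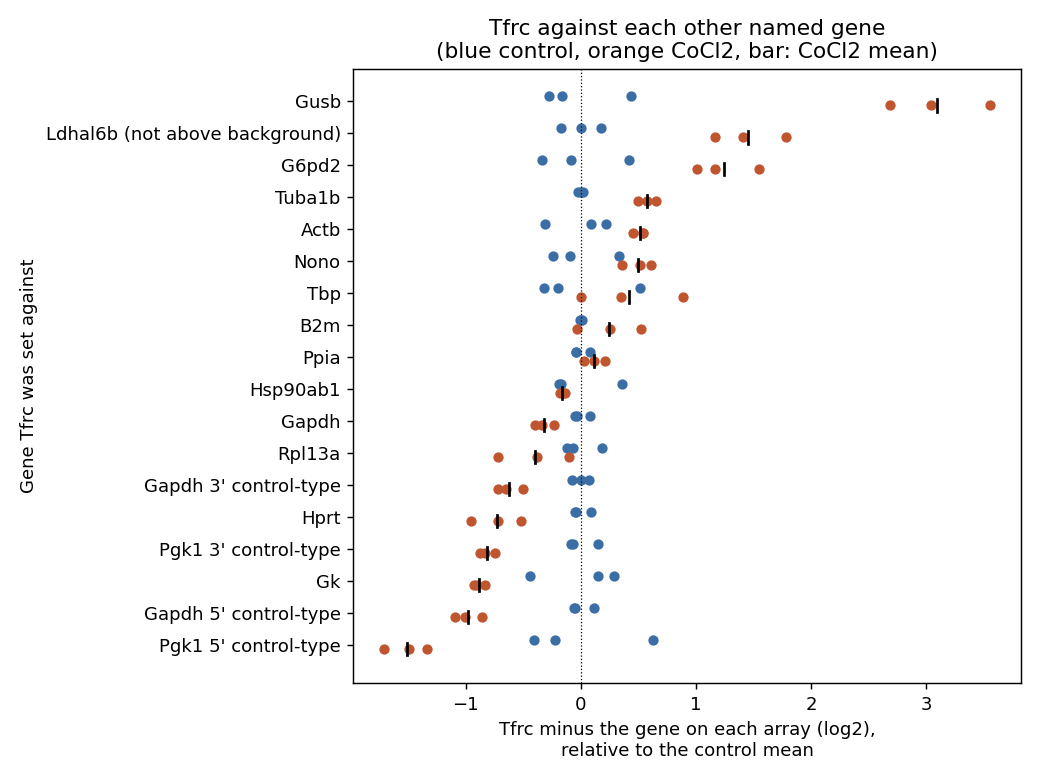
Tfrc minus each of 18 named probes on each array (x axis, log2, relative to the control mean), with controls in blue, CoCl2 arrays in orange and bars for the CoCl2 means. Values run from -1.51 against the Pgk1 5′ control-type probe to 3.10 against Gusb, and the groups overlap for Rpl13a, Hsp90ab1, Ppia, B2m and Tbp.

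Pgk1 rose on both of its probes, Gapdh rose on 2 of its 3 probes, and Tfrc was lower relative to each of these 5 probes. Of the 36 genes on the HIF target list, 3 are named on the array: Tfrc, Pgk1, which encodes phosphoglycerate kinase, and Gapdh, which encodes glyceraldehyde-3-phosphate dehydrogenase. Of the 38 genes on the list of iron uptake, storage and export, Tfrc alone is named. The control-type probes with names ending in 3 and 5 are called the 3′ and 5′ probes here.

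On the Pgk1 3′ probe the level after 75th-percentile scaling was 8.30, 8.35 and 8.02 in controls 1 to 3, and 9.29, 9.01 and 9.19 after CoCl2 (replicates 1 to 3). All CoCl2 arrays were above all controls, a log2 difference of 0.94 (SE 0.16, limma adjusted p 0.00258). Tfrc minus this probe was -0.60, -0.84 and -0.82 in controls and -1.63, -1.50 and -1.59 in CoCl2 replicates. Every CoCl2 array was lower than every control.

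The difference of Tfrc from the Pgk1 3′ probe changed by -0.82 (SE 0.18, 95% interval -1.22 to -0.41). It passed in limma with each array shifted by that probe (adjusted p 0.00334, where 70.9% of tested probes passed). With scan start as a block it was -0.75, and with 1 array left out the adjusted p was 0.00662 to 0.0257. Under quantile normalization it was -0.82 (adjusted p 0.00197). The interval, which is not adjusted, lies wholly below 0. Tfrc and this Pgk1 probe thus did not change alike, as was the case for 70.9% of tested probes set against it.

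The Pgk1 5′ probe rose by 1.63 (adjusted p 0.000693), the Gapdh 5′ probe by 1.105 (adjusted p 0.00169) and the Gapdh 3′ probe by 0.74 (adjusted p 0.0199), while the Gapdh panel probe differed by 0.44 (adjusted p 0.0956). For Tfrc against the Pgk1 5′ probe the change was -1.51 (SE 0.31, adjusted p 0.00185, where 84.9% of tested probes passed). It was -1.11 with scan start as a block, and with scan day as a block it no longer passed (adjusted p 0.0573). Against the Gapdh 5′ probe the change was -0.98 (SE 0.18, adjusted p 0.0013, where 77.3% passed), and -0.92 with scan start as a block.

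The Gapdh 3′ probe gave a smaller gap, -0.62 (SE 0.22, adjusted p 0.038, where 51.1% passed). Blocking on scan start took this call away (-0.70, adjusted p 0.0504). Leaving out CoCl2 replicate 3 did so too (adjusted p 0.175, the highest with 1 array left out). Against the panel probe of Gapdh the change was -0.32 with a 95% interval from -0.82 to 0.17 and did not pass (adjusted p 0.281, where 38.2% passed). It passed with quantile normalization (-0.37, adjusted p 0.0441) and with array weights (-0.29, adjusted p 0.0067). Gapdh has near-identical pseudogenes that its probes may also read. The direction was the same against all 5 of these probes, which come from the same arrays and share the Tfrc values.

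The named gene whose pattern was most like that of Tfrc was Ppia, which encodes cyclophilin A. Likeness was taken as the root mean square difference over the 6 arrays, each gene centred on its own mean, among the 13 panel genes well above background on all arrays. It was 0.09 for Ppia, 0.17 for Gapdh and 0.20 for the chaperone gene Hsp90ab1, where the spread of Tfrc around its own mean was 0.16. Ppia was at 8.98, 8.92 and 8.62 in controls 1 to 3, and at 9.004, 8.68 and 8.85 after CoCl2 (replicates 1 to 3). Like Tfrc it was lowest in control 3.

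Tfrc minus Ppia differed between the groups by 0.12, with a 95% interval from -0.27 to 0.50. Against Hsp90ab1 the difference was -0.16 (95% interval -0.63 to 0.31), and its sign turned against control 3 alone (0.03). Of the 247 lincRNA-named probes well above background on all arrays, the most similar were humanlincRNA1773+_P1 (0.09), mouselincRNA0733-_P1 and mouselincRNA1011+_P1 (both 0.11). Their CoCl2 minus control differences were 0.26, 0.17 and 0.13. Likeness over 6 arrays that share their scaling is a description and carries no test.

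**Figure D5:**
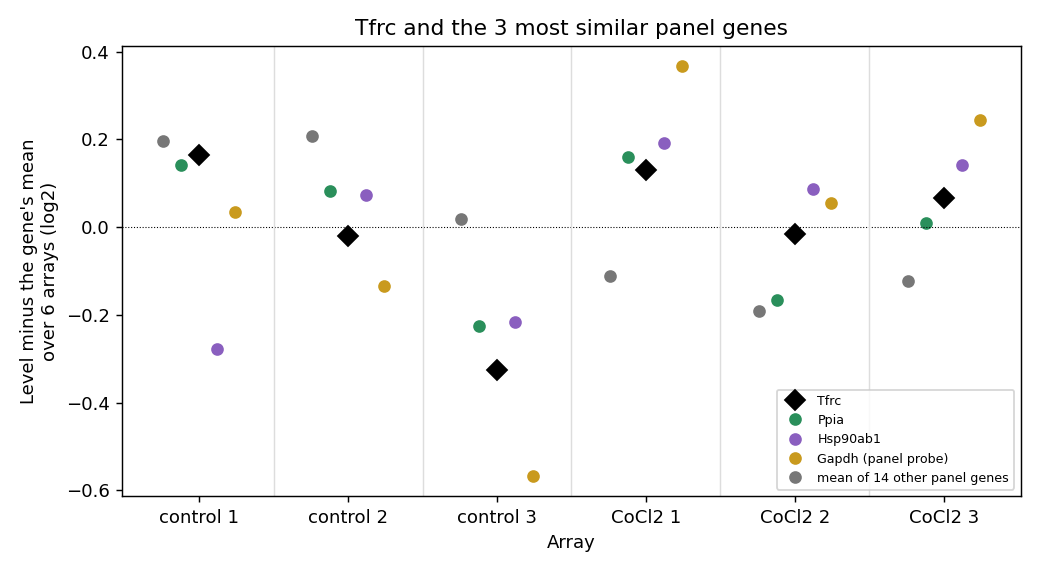
Level of Tfrc (diamonds), the 3 most similar panel genes and the mean of the 14 other panel genes on each array (x axis), each relative to its own mean over the 6 arrays (y axis, log2, 75th-percentile scaling). Tfrc and Ppia are both lowest on control 3, while the panel mean is lower on all CoCl2 arrays than on any control.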

How the data were processed

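RNA of 3 control and 3 CoCl2 samples was measured, 1 array each. After ribosomal RNA removal the RNA was amplified by random priming and labelled with Cy3, per the labels' protocols. The deposited scanner files hold spot intensity on a linear scale. They were made with background subtraction and spatial detrending in Agilent's extraction program (Feature Extraction 11.0.1.1), per the file headers, one array at a time. The authors' deposited table holds log2 values for 60804 probes, which correlated with their own arrays (r 0.998 to 1.000) and had column medians of 5.75. The sources used here do not say how it was made. It holds no RefSeq-named probe, so it bears only on the count of changed probes.

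Control-type spots, apart from the 4 named for Gapdh and Pgk1, and spots with an outlier flag were left out, and spots were averaged on the log2 scale with no pseudocount. Each array was shifted by its 75th percentile over 60915 probes, or by the mean of the 14 other RefSeq-named probes. Probes well above background on at least 3 of 6 arrays (at least 50% of a probe's spots) were tested, 34839 in all. The test was limma's two-sided moderated test (version 3.58.1 under R 4.3.3), with 4 residual degrees of freedom, p values adjusted by Benjamini-Hochberg across the tested probes (threshold 0.05), and all adjusted p values not called exact come from it. Exact permutation tests used scipy 1.17.1 in Python 3.11.15. The fit was tested on simulated data. The number of arrays limits the precision.

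The rule for named genes takes Tfrc, the panel, genes of the HIF and iron lists named on the array, and the 3 panel genes and 3 lincRNA-named probes nearest in pattern. Members and lists were chosen with earlier results of these data known. The planned normexp correction used the median spot signal, since the files used here hold no mean signal. The comparisons with probes of like brightness, the limma fits against single genes and the values on the shared scan start were added after seeing the data. Alternatives covered flags, background correction, scaling, filters, scan start, scan day, replicate number, array weights and single arrays left out.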

Additional observations from a re-analysis of the deposited data

How the results depend on the processing

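The Tfrc difference of 0.12 kept its sign in 17 of 21 alternatives. It was -0.25 with quantile normalization, -0.19 with cyclic loess and -0.056 with no scaling between arrays, and passed at 0.28 with array weights. With 1 array left out it ranged from -0.012 (without control 3) to 0.23. Relative to the panel mean every CoCl2 array was above every control. The sign was therefore bound to hold with single arrays left out, array weights, or scan day or replicate number as a block. The filters on dim probes leave the value as it is. With these included, the difference relative to the panel mean, 0.40, was above 0 in all 22 alternatives. It passed with normexp (0.33), with probes well above background on all 6 arrays (0.40), with scan start as a random block (0.44), with array weights (0.44) and without control 1 (0.49, adjusted p 0.0249), and ranged from 0.33 to 0.49 with 1 array left out. The cause of these changes was not tested. Testing only probes well above background on all 6 arrays left the difference at 0.40 and changed its SE from 0.151 to 0.146. The 16580 probes past the threshold became 5450 with scan start as a block, 7510 with scan day as a block and 26511 with array weights, and 11491 to 17538 with 1 array left out.

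The 13 comparisons with single genes whose groups did not overlap became 13 to 15 with 1 array left out. This count could not fall, since leaving out an array cannot make separate groups overlap. In limma against each gene 10 passed. Of 126 values against single genes with an array left out or against control 3 alone, 122 moved by less than the spread between replicates. With 1 of 3 arrays left out a value cannot move by more than that spread. Only the 18 values against control 3 alone could do so. The 4 that did were those for Gk, Nono, G6pd2 and the Gapdh panel probe. The Tfrc difference minus the median difference of probes of like brightness was -0.30, and it was -0.27 with a window of 1 log2 and -0.38 to -0.22 with 1 array left out. Replicate numbers were not taken as pairs in the main fit. The deviations of same-numbered arrays correlated by 0.30, 0.36 and -0.03 for replicates 1 to 3. Those of arrays with unlike numbers correlated by -0.37 to 0.18. With the replicate block Tfrc was at 0.12 (adjusted p 0.515) and, relative to the panel mean, at 0.40 (adjusted p 0.0647), and 18765 probes passed. With the replicate block Tfrc no longer passed against the Gapdh 3′ probe (adjusted p 0.0562) or Tuba1b (adjusted p 0.0564). It did pass against Nono (adjusted p 0.0316). The scan-start block leaves 1 control beside the CoCl2 arrays, so its p values carry no spread between controls.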
